A study of Mus musculus with 22 samples.

Results

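The hypothalamic response to bacterial lipopolysaccharide (LPS, a cell wall component of Gram-negative bacteria that triggers inflammation and fever) was measured in mice that lack interleukin-6 (IL-6). The comparison sets the 7 arrays titled IL-6 KO LPS against the 4 titled IL-6 KO SALINE, 11 of the 22 arrays of the study. It covers all 19935 genes whose probe sets carry a single symbol, with the probe sets of a gene averaged. The other 11 arrays, from wild-type (WT) littermates (7 after LPS and 4 after saline), are used to set values beside those of the KO. They also enter the estimate of spread behind every p-value of the KO comparison. All mice were C57bl6 males, 9 to 12 weeks old, housed singly, and KO and WT shared the same parents. LPS mice received 1 intraperitoneal injection of Escherichia coli LPS at 120 µg/kg and saline mice received the vehicle. All were killed 3 h later, and were perfused through the heart with 0.9% saline before the hypothalamus was taken. From its RNA, 200 ng was labelled with biotin for an Affymetrix array. The study asked whether gene expression could account for the missing fever of mice without IL-6, and the present comparison shows which parts of the LPS response those mice do make.

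Fever begins when LPS is sensed through the receptor TLR4, on blood cells and on the endothelial cells that line brain vessels. These cells release cytokines, and endothelial cells make prostaglandin E2, which acts on neurons of the hypothalamus. IL-6 signals through the receptor chain gp130 and the transcription factor STAT3. The same stimulus also triggers interferon production through the adaptor TRIF, and the release of adrenal glucocorticoids, which act on the brain through their own nuclear receptor.

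Values are log2 differences from the median array, because the deposited table had been centred gene by gene. They carry no level, so the presence of hypothalamic, endothelial or other markers in the tissue could not be checked, and no gene is compared with another in abundance. Whether each array held RNA of its own mouse was not labelled. The p-values then measure only how far these arrays spread, which may be technical. Differences are LPS minus saline with the standard error (SE) of limma, a linear model fitted over all genes, and a gene was called at a Benjamini-Hochberg adjusted p under 0.05. In a whole tissue, more cells of a type and more RNA per cell cannot be told apart. Some arrays stood apart through genes of neighbouring tissue. Gh, for growth hormone of the pituitary, reached 3.96 in KO saline replicate 2, 3.76 in KO LPS replicate 3 and 2.20 in KO LPS replicate 5. Prl, for prolactin, reached 2.90, 2.74 and 1.66 in the same 3 arrays. The choroid plexus gene Ttr lay at 1.98 in KO LPS replicate 4 and 1.23 in KO saline replicate 2.

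Some of the genes that rose carry, in their promoters, sequence motifs often tied to these pathways. The stretches printed here were chosen because they hold such a motif and because the results below turn on the same genes. Sequences are from RefSeq, build GRCm38.p6, written 5′ to 3′ on the strand of the gene, with positions counted back from the start site and the matched motif in capitals. The first set shows the interferon-stimulated response element (ISRE), searched on both strands as GAAANN directly followed by GAAA. Cxcl10 (chr5:92349019-92349122, minus strand) has an ISRE at -213 to -204 and, at -159 to -150, a kappa-B site, searched on both strands as GGGANN directly followed by TTCC. Rsad2 (chr12:26456543-26456592, minus strand) has an ISRE at -120 to -111. Ifit1 (chr19:34640765-34640833, plus strand) has ISREs at -104 to -95 and -85 to -76, and Ifit3 (chr19:34583353-34583436, plus strand) at -156 to -147 and -122 to -113.
Cxcl10: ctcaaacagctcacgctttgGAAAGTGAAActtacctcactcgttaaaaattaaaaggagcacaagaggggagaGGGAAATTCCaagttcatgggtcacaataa
Rsad2: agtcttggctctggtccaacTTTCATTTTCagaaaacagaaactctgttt
Ifit1: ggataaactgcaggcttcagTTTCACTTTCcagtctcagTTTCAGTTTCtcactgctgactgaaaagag
Ifit3: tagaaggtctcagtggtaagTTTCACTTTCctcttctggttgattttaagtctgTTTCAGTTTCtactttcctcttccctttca

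The second set shows the kappa-B site, the STAT site (GAS, searched as TTCNNNGAA, which is its own reverse complement) and the glucocorticoid response element (GRE, searched as GNACAN directly followed by NNTGTNC, likewise its own reverse complement). The kappa-B match of Nfkbia (chr12:55492648-55492696, minus strand) lies at -29 to -20, and that of Il6 (chr5:30013050-30013099, plus strand), the targeted gene, at -44 to -35. Icam1 (chr9:21015878-21015926, plus strand) and Steap4 (chr5:7960336-7960384, plus strand) carry the same GAS letters, at -42 to -34 and -116 to -108. Mt1 (chr8:94178975-94179027, plus strand) has a GRE at -94 to -82 and Txnip (chr3:96557765-96557817, plus strand) at -172 to -160.
Nfkbia: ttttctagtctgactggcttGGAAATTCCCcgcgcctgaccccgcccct
Il6: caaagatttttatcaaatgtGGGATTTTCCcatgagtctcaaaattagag
Icam1: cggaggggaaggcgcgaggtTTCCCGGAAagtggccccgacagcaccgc
Steap4: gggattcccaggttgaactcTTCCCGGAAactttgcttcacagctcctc
Mt1: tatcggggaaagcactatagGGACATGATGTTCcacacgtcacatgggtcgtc
Txnip: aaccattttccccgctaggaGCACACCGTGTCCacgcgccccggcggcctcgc

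Il6, the targeted gene, was examined first. In the 4 KO saline arrays it lay at -0.08, -0.11, -0.16 and -0.14. In the 7 KO LPS arrays it ranged from -0.01 over a median of 0.18 to 0.61. The groups did not overlap, and the signal of this probe set was 0.36 higher after LPS (SE 0.08, adjusted p = 0.0193, limma; exact two-sided permutation p = 0.00909 over 330 regroupings, of which 0.00303 is the smallest possible). In WT the difference was 0.21 and was not called, and the 2 effects differed by 0.15 (SE 0.12, unadjusted p = 0.211, limma). The call was lost without KO saline replicate 2, 3 or 4 (adjusted p = 0.0597, 0.0873 and 0.0693, limma). It was also lost without KO saline replicate 2 and KO LPS replicate 3 together (0.109), and without all 3 arrays with pituitary genes (0.134). With the KO arrays alone, which lend no spread from WT, it was lost too (adjusted p = 0.102, limma). The labels leave unstated where in Il6 the mutation lies, so this probe set, which may sit outside it, does not check the genotype.

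After LPS 267 genes were called in the KO hypothalamus, 1.34% of those tested. Of these, 216 were higher (1.08%) and 51 lower (0.256%). The increases were larger: 39 of the 216 exceeded 1 on the log2 scale and 10 exceeded 2, with a median of 0.49, while 2 of the 51 decreases exceeded 1, with a median of -0.31. The 7 LPS arrays lay entirely above the 4 saline arrays in 189 of the 216 and entirely below in 33 of the 51. Over all genes tested, arrays did not overlap in 1.66%, with LPS higher in 1.21% and lower in 0.446%. An unadjusted p under 0.05 was found in 5.84% of genes. Interferon-induced genes led the increases and genes of brain endothelium the decreases, as the plot of difference against p shows.

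**Figure D1:**
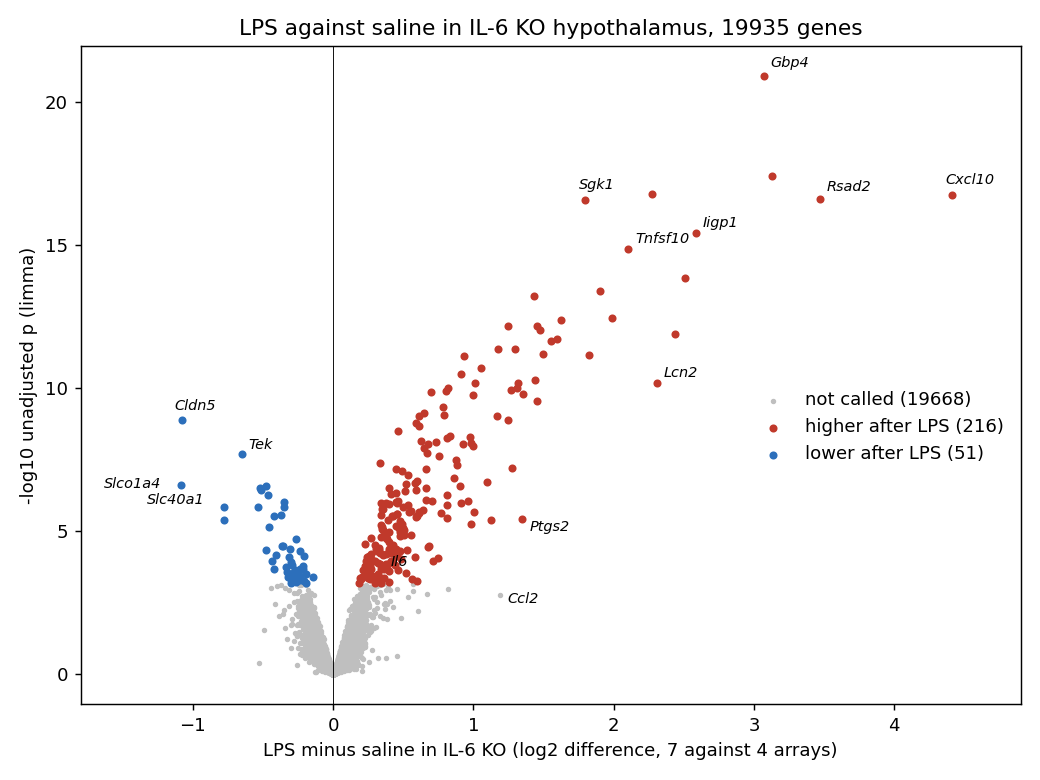
Each point is 1 of 19935 genes, with the log2 difference of LPS minus saline in IL-6 KO (7 against 4 arrays) on the x axis and -log10 of the unadjusted limma p on the y axis; red marks the 216 genes called higher, blue the 51 called lower. Increases reach 4.41 (Cxcl10) and decreases stop at -1.08 (Slco1a4, Cldn5).

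Array number entered the counts. The arrays are numbered 1 to 22 in their titles, and 2 KO LPS arrays and 1 KO saline array fall among numbers 1 to 11. Within those, 88 genes were higher and 37 lower, and 93 of the 125 were among the 267. Within numbers 12 to 22, 180 were higher and 36 lower, and 193 of these were among the 267. With the number block as a term in the fit, 317 genes were called, all 267 included. Without KO saline replicate 2 and KO LPS replicate 3, the arrays with most pituitary signal, 217 genes were called, 200 of them among the 267. Quantile normalization of the centred values, which gives every array the same distribution, shrank the large increases. It enlarged the decreases of Slco1a4 (-1.08 to -1.32) and Cldn5 (-1.08 to -1.61). Under it 39 of the 145 called genes named by rule or singled out were smaller by over 1.5 times, and Cxcl10 went from 4.41 to 2.23.

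Interferon-induced GTPases, which attack the vacuoles of intracellular microbes, were the most uniform group. The list held 18 genes, of which 9 were not among the genes tested. All 9 measured members rose, with a median of 1.55 against -0.01 over all genes. Gbp5 lay at -3.05, -2.96, -2.88 and -2.88 in the saline arrays and between -0.19 and 0.61, median 0.11, in the LPS arrays, a difference of 3.13 (SE 0.13) or 8.75-fold. Gbp4 lay between -3.07 and -2.77 after saline and between -0.01 and 0.44 after LPS. Its difference of 3.07 (SE 0.09) had the smallest p of any gene (adjusted p = 2.38e-17, limma). The 7 LPS arrays of both genes thus stood more than 2 log2 units above every saline array. Iigp1, which lay between -2.55 and -2.33 after saline, rose by 2.59, Gbp3 by 1.83, Gbp9 by 1.55 and Irgm1 by 1.49. The calls of these 6 genes held without any 1 array. Guanylate-binding proteins have near-identical copies, so the split of signal between Gbp genes is uncertain.

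Antiviral effectors followed. Of 39 measured, 26 rose and none fell, and 23 of the 26 did not overlap between groups, beside 189 of all 216 raised genes. Rsad2, which encodes viperin, an enzyme that makes a chain-terminating nucleotide, lay at -3.33, -3.26, -3.13 and -3.10 after saline and between -0.23 and 0.86, median 0.20, after LPS. It rose 11.1-fold (3.47, SE 0.15). Cmpk2, which lies beside Rsad2 in mammals and supplies nucleotides, rose by 1.43 (SE 0.09). Ifit1, which binds viral RNA that lacks a host cap, lay between -2.57 and -1.81 after saline and between -0.10 and 0.69 after LPS, a difference of 2.44 (SE 0.18). Ifit3 rose by 1.99, Ifit2 by 1.62 and Ifit3b by 1.44, although the near-identical sequences of Ifit3 and Ifit3b make their separate values uncertain. Slfn5 rose by 2.27 (SE 0.10), Mx2, a gene of the dynamin-like GTPase family, by 1.32 and Trim30a 3.02-fold. Xdh, xanthine dehydrogenase, and the long RNA AW112010, which belong to no list, rose by 1.45 and 2.51.

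Machinery for ISG15, a ubiquitin-like protein, and for ADP-ribosylation rose in 9 of 13 measured genes, with a median of 0.53. Usp18, which removes ISG15 and restrains the interferon receptor, lay between -1.22 and -1.07 after saline and between -0.20 and 0.46 after LPS, a difference of 1.30 (SE 0.10). Herc6, the ISG15 ligase of mice, rose by 1.01, and its conjugating enzyme Ube2l6 by 0.34. Parp14 rose by 1.90, Rnf213 by 1.17, Parp9 by 0.83, Dtx3l by 0.59 and Parp12 by 0.53. The groups did not overlap in 8 of the 9 called genes, beside 189 of all 216 raised genes.

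Sensors of foreign nucleic acid rose in 6 of 15. The RNA helicases Ifih1 (MDA5) and Ddx58 (RIG-I) rose by 1.27 (SE 0.12) and 1.05 (SE 0.09), and their regulator Dhx58 by 0.34. Ifi203, an intracellular DNA sensor family member, rose by 0.44, Nlrc5, which drives MHC class I genes, by 0.31, and Tlr7, a receptor for single-stranded RNA, by 0.26. The Dhx58 call was lost without KO saline replicate 1 or 3 (adjusted p = 0.0557 and 0.0856, limma), that of Ifi203 without the same arrays (0.0727 and 0.067), and that of Tlr7 without KO saline replicate 3 (0.122). Of 17 STAT and IRF factors, which carry the interferon signal to the genome, 3 rose: Irf7 by 0.98 (SE 0.11), Stat2 by 0.38 and Irf1 by 0.38, the last not called without the 2 arrays with most pituitary signal (adjusted p = 0.0525, limma). Nlrc5 and Irf1 are averages over several probe sets, and both differences were over 1.5 times larger in the probe set of largest variance alone. None of 13 genes for interferons and their receptors was called, with a median of 0.01.

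Antigen presentation by MHC class I rose in 4 of 16 genes and MHC class II in none of 8. H2-Q4 rose by 0.88 (SE 0.11), the peptide transporters Tap1 and Tap2 by 0.61 and 0.34, and the immunoproteasome subunit Psmb9 by 0.36. H2 class I genes have close copies, so the value of H2-Q4 may hold signal of others. Psmb9 lay between -0.42 and -0.19 after saline and between -0.01 and 0.15 after LPS. In WT its difference of 0.20 was not called (adjusted p = 0.0677, limma).

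**Figure D2:**
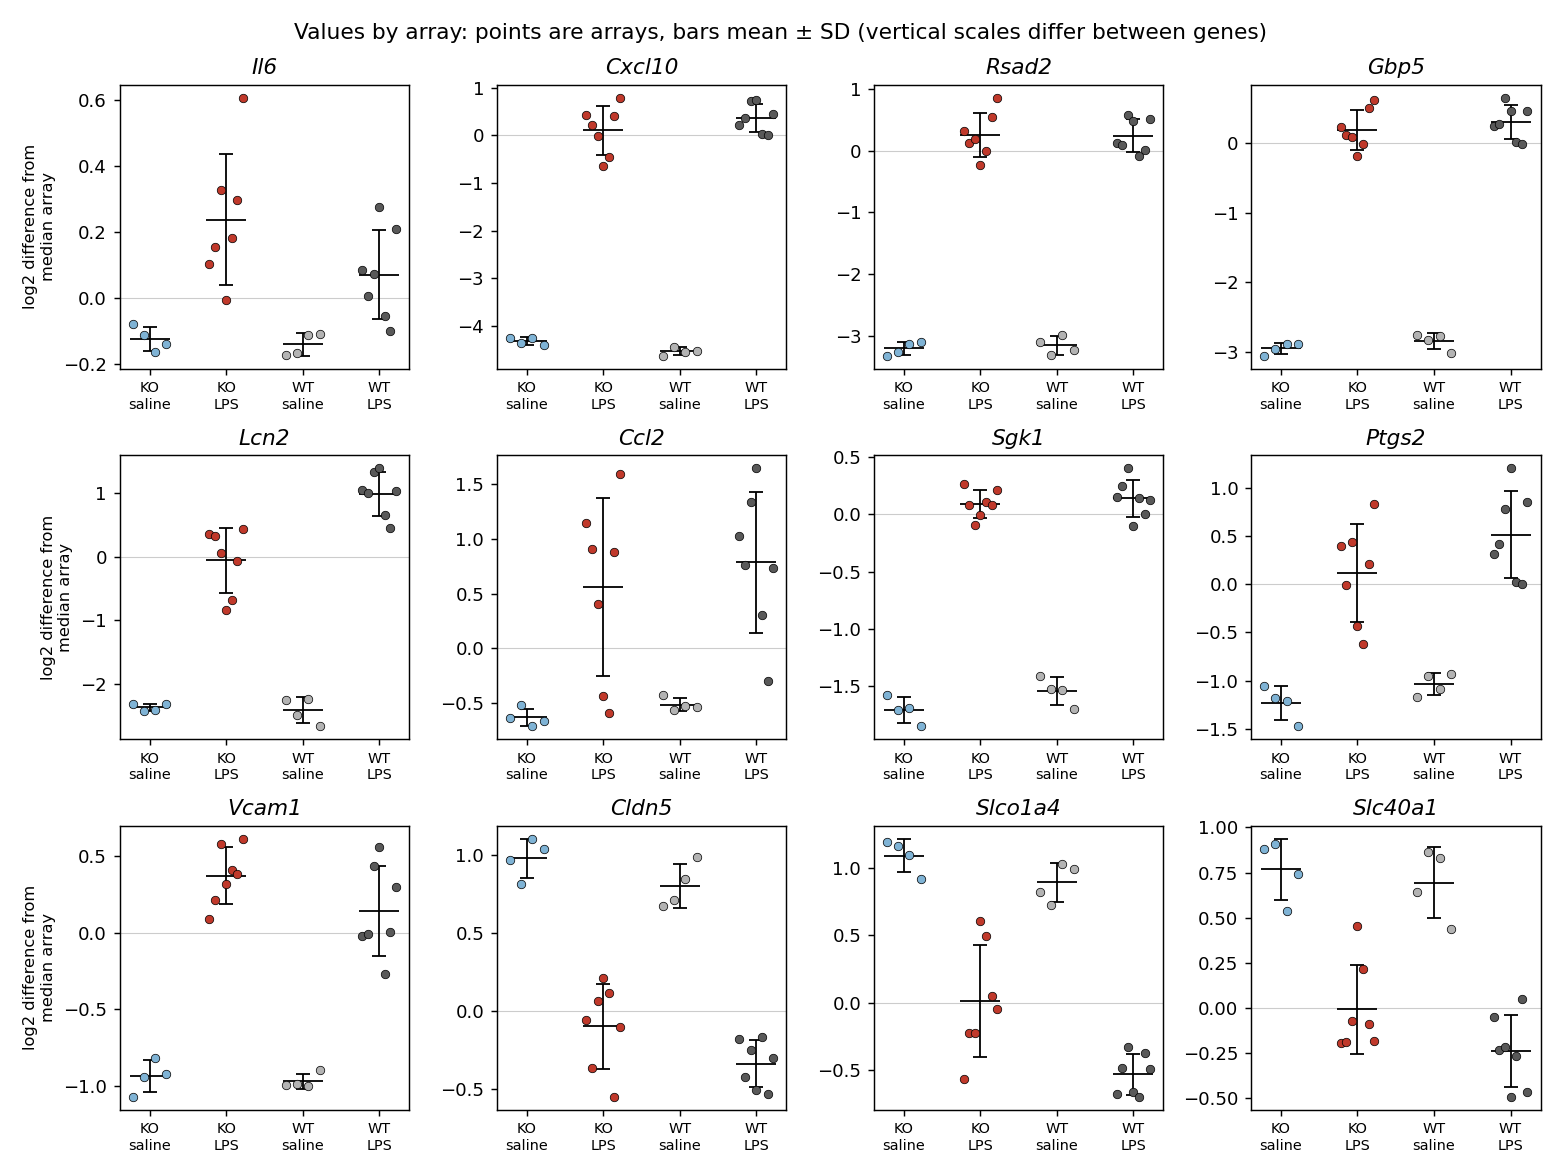
Points are the 22 arrays for 12 genes, as log2 difference from the median array, in KO saline (4), KO LPS (7), WT saline (4) and WT LPS (7); bars are mean ± SD and the vertical scale differs between genes. KO LPS and KO saline arrays do not overlap in 11 of the genes, and in Ccl2 they do.

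Cxcl10, a chemokine that attracts activated T cells, had the largest increase of any gene. It lay at -4.24, -4.35, -4.24 and -4.40 in the saline arrays and between -0.64 and 0.78, median 0.21, in the LPS arrays. The difference was 4.41 (SE 0.19) or 21.3-fold, with an adjusted p of 9.02e-14 (limma), against 4.88 in WT. The 2 effects differed by -0.47 (SE 0.27, unadjusted p = 0.0953, limma). Cxcl11, a ligand of the same receptor, rose by 0.81. Its call was lost under quantile normalization (0.48, adjusted p = 0.355) and within arrays 1 to 11 (adjusted p = 0.18, limma). Cxcl12, which retains cells in tissue, fell by 0.30 with overlapping groups. These were the 3 called genes of 15 CXC and CX3C chemokines. The Cxcl12 call held only without KO LPS replicate 4 or 5, KO saline replicate 4 or WT saline replicate 2 of the 22 arrays left out in turn, and reached an adjusted p of 0.313 without KO saline replicate 3.

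Of 18 CC chemokines, 2 rose: Ccl12 by 0.86 (SE 0.12) and Ccl9 by 0.45, the latter not called without KO saline replicate 3 (adjusted p = 0.0586, limma). Ccl2, which draws monocytes, was not called although its difference was 1.19 (SE 0.33, adjusted p = 0.101). Its saline arrays lay at -0.64, -0.52, -0.71 and -0.66. Its LPS arrays lay at 1.15, 0.91, 0.40, -0.43, -0.59, 0.88 and 1.59, so that replicates 4 and 5 stood at or close to the saline values and the other 5 well above. Without LPS replicate 4 or 5 the gene was called (adjusted p = 0.0261 and 0.0163). Among 17 chemokine receptors Ccrl2, which presents the ligand chemerin, rose by 1.10 (SE 0.15). Cxcr4, the receptor of Cxcl12, fell by 0.28, a call lost without KO LPS replicates 1, 2, 3, 5, 6 or 7 or KO saline replicates 2, 3 or 4 (adjusted p up to 0.22, without KO saline replicate 2).

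Members of the IL-6 family of cytokines were not called apart from Il6 itself, and 2 of the receptors rose. Osmr, the oncostatin M receptor chain, lay between -1.08 and -0.65 after saline and between -0.41 and 0.55 after LPS, a difference of 0.96 (SE 0.15). Lifr rose by 0.27 with overlapping groups. Il6ra, the IL-6 receptor chain, missed the threshold at 0.24 (SE 0.06, adjusted p = 0.0693, limma). It was called without KO saline replicate 1 or KO LPS replicate 4 or 5 (adjusted p = 0.0341, 0.0393 and 0.0395). The Lifr call was lost without KO LPS replicates 2, 3, 5, 6 or 7 or KO saline replicates 2, 3 or 4 (adjusted p up to 0.186, without KO saline replicate 4). These 3 were the called genes of 13.

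The classical fever cytokines showed smaller values. Il1b lay at -0.37, -0.24, -0.13 and -0.02 after saline and between -0.13 and 0.65 after LPS, with overlap and a difference of 0.31 (SE 0.13, adjusted p = 0.6, limma). Tnf had a difference of 0.04 (SE 0.05), with a lowest LPS array of -0.19 and a highest of 0.11. No gene of 15 in the IL-1 family and its receptors was called. Of 24 in the TNF family, 3 rose. The death ligand Tnfsf10 (TRAIL) lay between -2.02 and -1.56 after saline and between 0.04 and 0.66 after LPS, a difference of 2.10 (SE 0.11). The death receptor gene Fas rose by 0.53 and Cd40, a costimulatory receptor, by 0.48. Of 25 other cytokines and receptors, 3 rose: Csf1, the macrophage growth factor, by 0.47, Il15 by 0.40 and Il4ra by 0.30, the last not called without the 2 arrays with most pituitary signal (adjusted p = 0.0535, limma). The Il15 call was lost without KO saline replicate 1 or 4 (adjusted p = 0.138 and 0.112).

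On the TLR4 side 4 of 22 genes rose: the bacterial lipopeptide receptor Tlr2 by 0.58 (SE 0.12), the LPS co-receptor Cd14 by 0.40, the kinase Map3k8 by 0.39 and the adaptor kinase Irak2 by 0.33 (SE 0.04). Irak2 had the smallest SE of these, with saline arrays between -0.35 and -0.19 and LPS arrays between -0.04 and 0.12. The Tlr2 call was lost without KO saline replicate 1 or 3 (adjusted p = 0.0727 and 0.0687, limma), as was that of Map3k8 (0.114 and 0.0741). The Cd14 call held only without KO LPS replicate 1, 4 or 6, WT LPS replicate 3 or 6, or WT saline replicate 4, and reached 0.183 without KO saline replicate 2.

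Feedback inhibitors of NF-kB, the factor that TLR4 activates, were among 6 of 24 called members. Nfkbia, which holds NF-kB in the cytoplasm, lay at -1.13, -1.28, -1.38 and -1.08 after saline and between -0.36 and 0.40 after LPS, a 2.55-fold difference (1.35, SE 0.13). Birc3 rose by 0.68 (SE 0.13), Tnfaip3 (A20), a ubiquitin-editing inhibitor, by 0.56, the adaptor Tifa by 0.50, the nuclear cofactor Nfkbiz by 0.38 and the subunit Nfkb2 by 0.34. The calls of 3 of these depended on single arrays. That of Tnfaip3 was lost without KO LPS replicates 1, 2, 3, 6 or 7 or any KO saline array (adjusted p up to 0.151, without KO saline replicate 2). That of Nfkbiz was lost without KO saline replicate 1 or 4 (0.0708 and 0.0645). That of Nfkb2 held only without KO LPS replicate 4 or 5, KO saline replicate 1, or WT LPS replicate 1, 4 or 6, and reached 0.193 without KO saline replicate 3.

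The list of STAT3-linked and acute-phase genes, which respond to IL-6 family cytokines among other signals, had 9 of 34 members called higher in the KO, with a median of 0.19. Lcn2, which binds bacterial iron carriers, lay at -2.31, -2.42, -2.42 and -2.32 after saline. After LPS it lay at 0.36, 0.32, 0.06, -0.84, -0.68, -0.06 and 0.43, again with replicates 4 and 5 lowest, and the difference was 4.96-fold (2.31, SE 0.20). Under quantile normalization it was 0.86 (SE 0.36) and was not called (adjusted p = 0.694, limma). The Tmem252 call was lost there too (0.54, adjusted p = 0.0621). The other called members included Ch25h, which makes an oxysterol that limits viral entry (2.01-fold), Tmem252 (0.81, SE 0.12), Tgm2, transglutaminase (0.62), Steap4, a metalloreductase (0.60), Mt2 and Mt1, metallothioneins that bind zinc (0.71 and 0.51), and Il4ra. Socs3, the feedback inhibitor that STAT3 induces, was not called at 0.15 (SE 0.08, adjusted p = 0.95). Its KO saline replicate 4 lay at 0.16, while the other KO saline arrays lay between -0.26 and -0.22. Socs3 was called in none of the settings tried, with a lowest adjusted p of 0.121 (limma). The Mt2 call was lost without KO saline replicate 1 (adjusted p = 0.0887, limma).

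In WT 17 of the same 34 genes were called higher, with a median of 0.33. The interaction, which tests each gene for a difference between the KO and WT effects, called none of the 19935 genes (1.64% had an unadjusted p under 0.05, limma). Its smallest p among genes with a lesser rise in KO belonged to Lcn2 (-1.08, SE 0.29, unadjusted p = 0.00101), Tmem252 (-0.60, SE 0.18, unadjusted p = 0.00258) and Mt1 (-0.34, SE 0.10, unadjusted p = 0.00311), all on this list. The list was written with earlier results of these data known, so the place of these genes on it is no separate evidence. Mt2 had -0.44 (SE 0.22, unadjusted p = 0.0506, limma). For Lcn2 the highest of the 7 KO LPS arrays lay at 0.433 and the lowest of the 7 WT LPS arrays at 0.441, so these groups nearly met. How many of all genes part in this way was not counted.

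**Figure D3:**
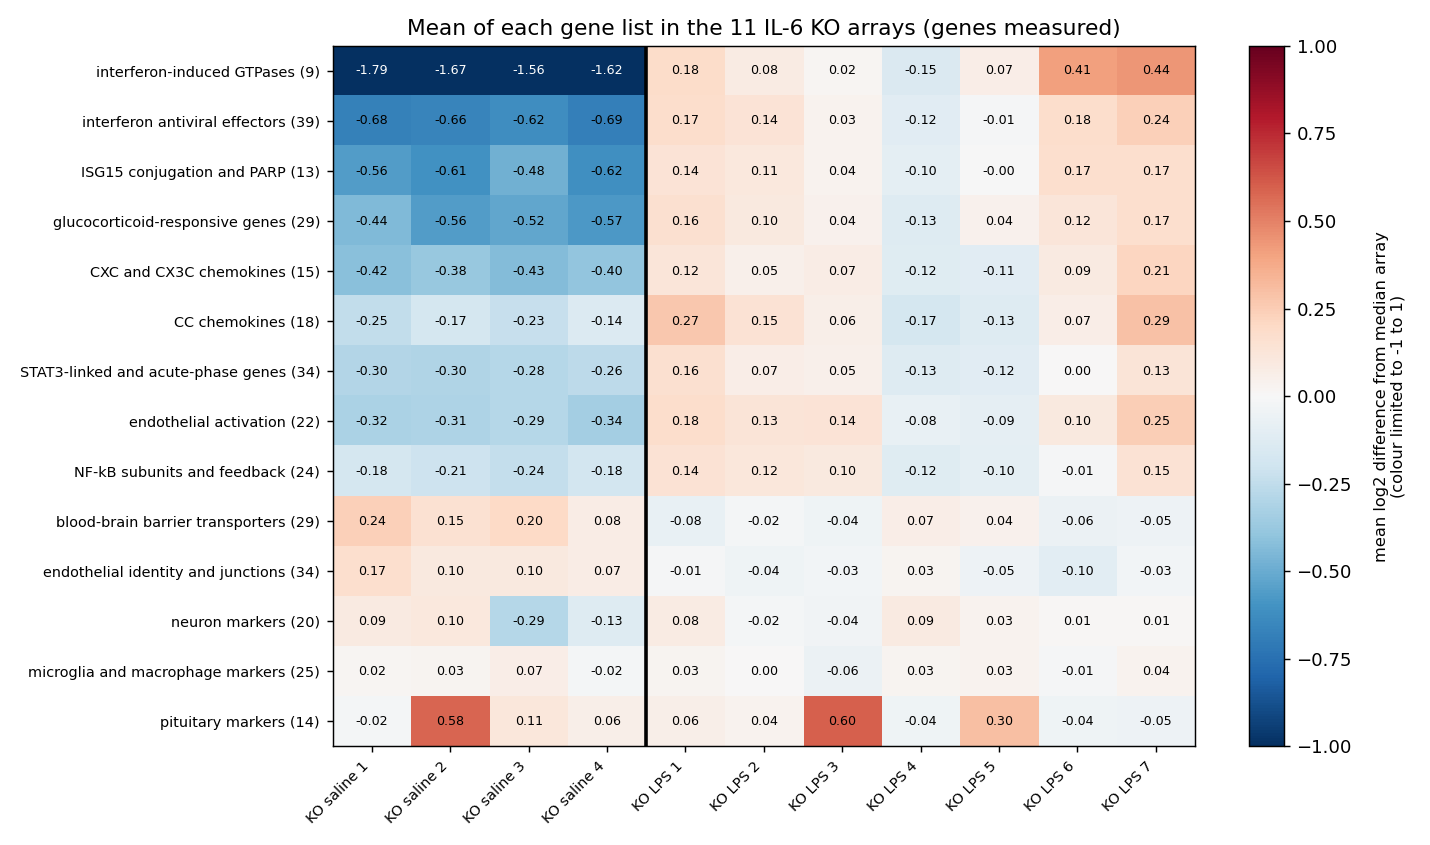
Each cell is the mean log2 difference from the median array over the genes of a list (number in brackets) in 1 of the 11 KO arrays; the 4 left columns are saline, the 7 right ones LPS, and the colour stops at -1 and 1. LPS replicates 4 and 5 are lowest for the chemokine, STAT3-linked, endothelial activation and NF-kB lists, and the pituitary list stands out in saline 2, LPS 3 and LPS 5.

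The LPS arrays differed among themselves in a shared way. Over the 34 STAT3-linked genes the list mean was -0.13 and -0.12 in LPS replicates 4 and 5 and between 0.00 and 0.16 in the others, against -0.30 to -0.26 in the saline arrays. Over 24 NF-kB genes replicates 4 and 5 lay at -0.12 and -0.10, the others between -0.01 and 0.15, and saline between -0.24 and -0.18. For GTPases the order was different: replicate 4 lay at -0.15, replicate 5 at 0.07, and replicates 6 and 7 highest at 0.41 and 0.44. Replicates 4 and 5 also carried Ttr (1.98) and pituitary signal (Gh 2.20) respectively, and whether these bear on their lower list means was not tested.

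Genes known to respond to glucocorticoids rose in 19 of 29 cases, with a median of 0.49, and 1 fell. Sgk1, a kinase that controls ion transport, lay at -1.57, -1.71, -1.69 and -1.85 after saline and between -0.09 and 0.27 after LPS. Its difference of 1.80 (SE 0.08) was 3.48-fold, with the smallest SE among the 39 genes that rose by over 1. Zbtb16, a transcription factor, rose by 1.46 (SE 0.14), with LPS replicate 4 at -0.73 and the others from -0.13 to 0.20. Under quantile normalization Zbtb16 (0.73, adjusted p = 0.091, limma) and Fkbp5 (0.53, adjusted p = 0.125) were not called. Errfi1, an inhibitor of EGF receptor signalling, rose by 0.91, and Fkbp5, a co-chaperone that lowers receptor affinity for the hormone, by 0.87. Ddit4, an inhibitor of the kinase mTOR, rose by 0.73, Pdk4, which blocks pyruvate oxidation, by 0.67, the anti-inflammatory mediator Tsc22d3 (GILZ) by 0.61 and Klf9 by 0.49. Txnip, which binds thioredoxin and is on no list, rose by 0.91 (SE 0.08). The fallen gene was the receptor itself, Nr3c1, at 0.22, 0.17, 0.14 and 0.15 after saline and between -0.22 and 0.08 after LPS (-0.24, SE 0.05). That call was lost without KO saline replicate 1 or 2 (adjusted p = 0.0982 and 0.061, limma). Nfkbia, Lcn2 and Mt2 are on this list and on others.

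Of 20 prostaglandin E2 genes, 3 were called. Ptgs2, the inducible cyclooxygenase that feeds fever prostaglandin synthesis, lay at -1.06, -1.18, -1.21 and -1.48 after saline. After LPS it lay at 0.39, -0.01, 0.44, -0.43, -0.62, 0.21 and 0.84. All LPS arrays were above all saline arrays, and the difference was 2.55-fold (1.35, SE 0.22, adjusted p = 0.000617, limma). The call was lost under quantile normalization (0.67, SE 0.29, adjusted p = 0.743) and within arrays 1 to 11 (1.25, SE 0.47, adjusted p = 0.216). Ptges, the terminal synthase, lay between -0.21 and 0.01 after saline and between -0.11 and 0.26 after LPS, with overlap. Hpgd, which degrades prostaglandin E2, lay at 0.53, 0.43, 0.48 and 0.35 after saline and between -0.13 and 0.24 after LPS, and fell by 0.42 (SE 0.07). Hpgds, which makes prostaglandin D2, fell by 0.21. The Hpgds call held only without KO LPS replicate 2 or 5, WT LPS replicates 3 to 6, or WT saline replicate 1 or 4, and reached 0.187 without KO saline replicate 3.

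Endothelial activation genes rose in 6 of 22 cases, with a median of 0.19. The adhesion molecule Vcam1 lay between -1.07 and -0.82 after saline and between 0.09 and 0.61 after LPS (1.31, SE 0.12), and Icam1 between -1.08 and -0.85 and between -0.14 and 0.53 (1.25, SE 0.13). Unlike the chemokines, Vcam1 was not lowest in LPS replicates 4 and 5, which lay at 0.32 and 0.41. F3, tissue factor, which starts coagulation, rose by 0.60 (SE 0.08). The other members called were Ptgs2, Ch25h and Tgm2, given above.

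Genes that mark endothelial cells and seal their junctions fell in 7 of 34 cases, with a median of -0.12, and none rose. Cldn5, the main claudin of the blood-brain barrier, lay at 0.96, 0.81, 1.10 and 1.04 after saline and between -0.55 and 0.21 after LPS. The difference of -1.08 (SE 0.11) left 0.474 of the saline signal. Ptprb, a phosphatase that restrains the angiopoietin receptor, fell by 0.52, Egfl7, a secreted vessel protein, by 0.48, Sox17 by 0.37, Clec14a by 0.35, Emcn (endomucin) by 0.30 and Ocln (occludin) by 0.26. The other 27 members were not called. The Emcn call was lost without KO saline replicate 2 or 4 (adjusted p = 0.0689 and 0.104, limma), and that of Ocln without KO LPS replicates 2, 3 or 6 or KO saline replicates 1, 2 or 3 (up to 0.165, without KO saline replicate 2).

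Receptors through which endothelial cells are kept quiescent or grow fell in 4 of 30 cases and 1 member rose. Tek, the angiopoietin receptor, lay at 0.75, 0.72, 0.66 and 0.60 after saline and between -0.15 and 0.25 after LPS (-0.65, SE 0.08). Kdr and Flt1, both VEGF receptors, fell by 0.51 and 0.20, and Rasgrp3, an activator of Ras and Rap, by 0.44. Bcl6b, a transcriptional repressor, lay between -0.30 and -0.13 after saline and between 0.02 and 0.31 after LPS, and rose by 0.34 (SE 0.06). In WT its difference was -0.02, and the effects differed by 0.36 (SE 0.08, unadjusted p = 0.000117, limma), the smallest interaction p of any gene. This difference did not pass adjustment over all genes (adjusted p = 0.999994, limma). The mean of the saline arrays was -0.20 in KO and 0.01 in WT, and that of the LPS arrays 0.14 and -0.02. The Flt1 call was lost without KO saline replicates 1, 2 or 3 or KO LPS replicates 4 or 5 (adjusted p up to 0.211, without KO saline replicate 1), and that of Rasgrp3 without KO saline replicate 1 (0.0876).

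Transporters of the blood-brain barrier fell in 8 of 29 cases, with a median of -0.15, and 1 rose. Slco1a4, which carries organic anions, lay at 1.20, 1.17, 1.10 and 0.92 after saline. After LPS it lay at -0.57, -0.22, -0.23, 0.61, 0.50, 0.05 and -0.05, so replicates 4 and 5 were closest to saline here too, and the difference was -1.08 (SE 0.15). The iron exporter Slc40a1 (ferroportin) lay between 0.54 and 0.91 after saline and between -0.20 and 0.45 after LPS, and fell by 0.78 (SE 0.12). Slco1c1, which carries thyroxine, fell by 0.48, the taurine carrier Slc6a6 by 0.37, Slc35f2 by 0.36, the drug exporter Abcb1a by 0.33, the amino acid carrier Slc38a5 by 0.29 and Slc16a4 by 0.27. Mfsd2a, which carries the omega-3 fatty acid DHA, rose by 0.45 (SE 0.08). The Abcb1a call was lost without KO saline replicate 1 or 3 (adjusted p = 0.116 and 0.0821, limma), and that of Slc38a5 without KO saline replicate 2, 3 or 4 (0.0713, 0.0586 and 0.0698). Slco1c1 was not called without the 2 arrays with most pituitary signal (0.0771).

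As lists, markers of other cell types moved little beside these. None of 20 pericyte and fibroblast, 25 microglia and macrophage, 17 blood leukocyte and red cell, 17 oligodendrocyte, 20 neuron, 15 choroid plexus or 14 pituitary markers was called. Their list medians lay between -0.05 and 0.07. Single members moved further without being called, up to 0.45 among neuron markers and down to -0.30 among oligodendrocyte and -0.27 among microglia markers. Some called endothelial genes moved no further than that. List means over the 20 pericyte markers ranged from -0.14 to 0.15 in saline and from -0.07 to 0.08 in LPS arrays, and over the 20 neuron markers from -0.29 to 0.10 and from -0.04 to 0.09. The part of these shifts in the endothelial results was not tested. Of 26 astrocyte and tanycyte markers, Dio2, which activates thyroid hormone, rose by 0.46 (SE 0.08) and Sox2, a stem cell and glial factor, fell by 0.53 (SE 0.08). Cx3cr1, the fractalkine receptor of microglia, had a difference of -0.25 (SE 0.08, adjusted p = 0.273, limma).

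**Figure D4:**
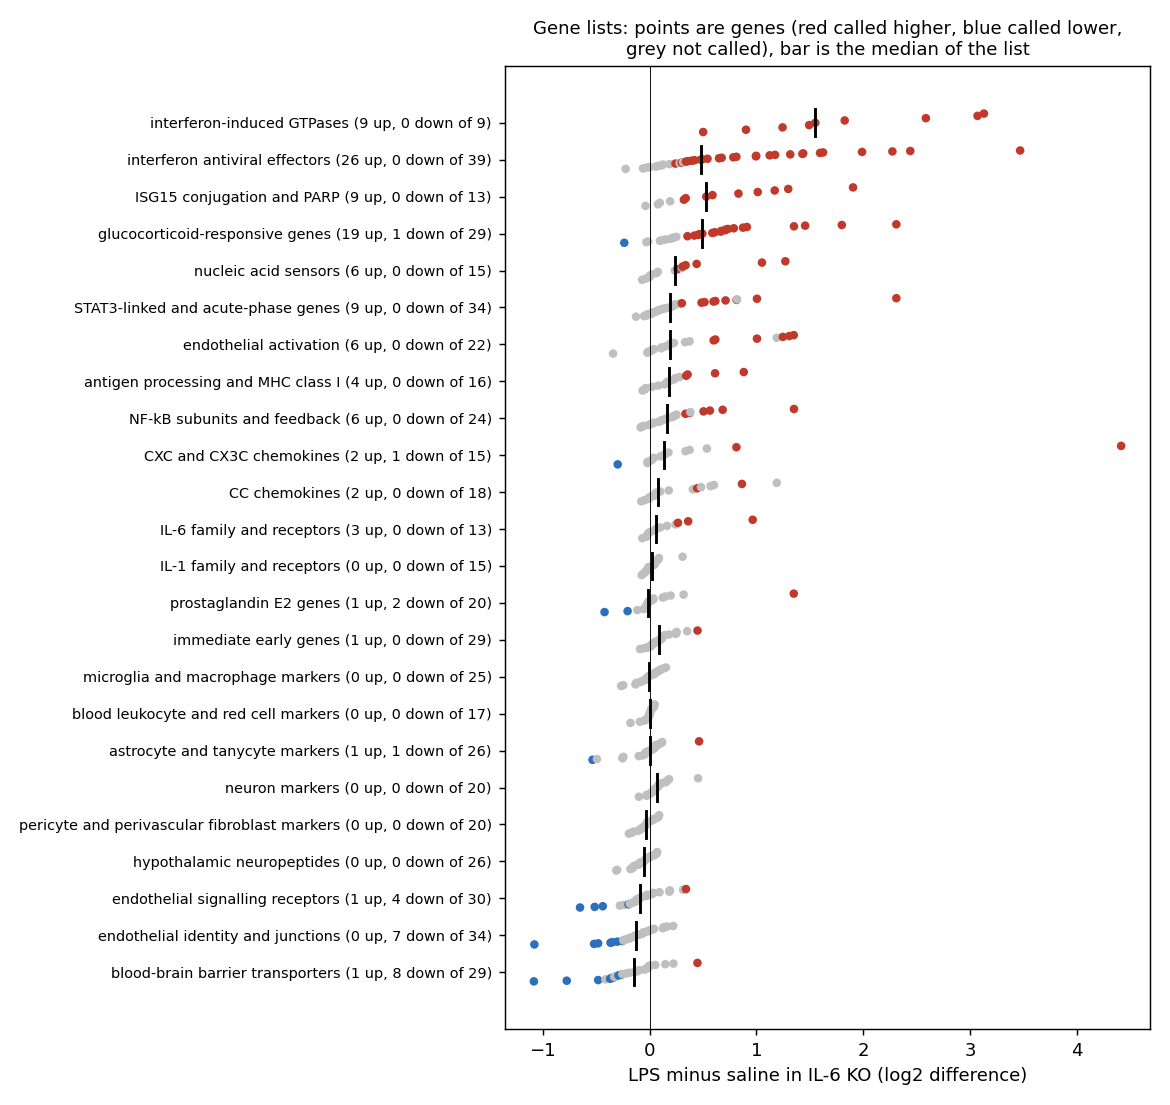
Each point is a gene of 1 of 24 lists, placed by its log2 difference of LPS minus saline in IL-6 KO; red is called higher, blue called lower, grey not called, and the black bar is the median of the list. The interferon lists lie to the right (median 1.55 for GTPases) and the 3 endothelial lists at the bottom lie slightly to the left (-0.09 to -0.15).

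Hypothalamic neuropeptides had no called gene of 26, with a median of -0.05. Adcyap1, the peptide PACAP, had the smallest p of them (-0.31, SE 0.08, adjusted p = 0.0746, limma), and it was called without KO saline replicate 2 (adjusted p = 0.0112), 1 of the arrays with pituitary signal. None of 17 preoptic thermoregulatory, 18 clock, 15 heat-shock and cold-inducible, 22 cell cycle, 11 MAP kinase phosphatase or 17 SOCS and JAK regulator genes was called. Of 29 immediate early genes, Atf3 rose by 0.45 (SE 0.07), with saline arrays between -0.40 and -0.23 and LPS arrays between -0.02 and 0.27. Of 25 energy-balance and thyroid genes, the 2 called were Dio2 and Slco1c1, which lie on other lists as well.

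Stress and matrix genes were called in smaller numbers. Of 27 cell death genes, 5 rose, among them Gadd45g, a growth arrest gene (0.93, SE 0.07), the LPS-sensing caspase Casp4 (0.77) and the survival factor Bcl2l1 (0.34). Of 20 hypoxia and glycolysis genes, 3 rose, Ddit4, Pfkfb3 (0.61) and Hif3a (0.52). The complement receptor C5ar1 rose by 0.40 (1 of 19). Among 12 metallothionein and zinc genes Mt1 and Mt2 rose, and among 23 iron and copper genes Lcn2 and Steap4 rose while Slc40a1 fell. Among 25 matrix genes the proteases Adamts9 and Adamts1 rose by 0.64 (SE 0.10) and 0.60 (SE 0.15). The Adamts9 call was lost under quantile normalization (0.43, adjusted p = 0.0782, limma). The Adamts1 call held only without KO LPS replicate 4 or 5, WT LPS replicates 3 to 7 or WT saline replicate 4, and reached 0.188 without KO saline replicate 4. Of the remaining large decreases, Trim59 fell by 0.78 (SE 0.13), with saline arrays between 0.52 and 0.80 and LPS arrays between -0.49 and 0.41. Adgre5, an adhesion receptor of leukocytes, fell by 0.46, the glycosyltransferase gene Eogt by 0.45, Elovl7, which lengthens fatty acids, by 0.42, and the homeobox gene Nkx6-2 by 0.41. The Elovl7 call was lost without KO saline replicate 2 (adjusted p = 0.132, limma) and that of Nkx6-2 without KO saline replicate 1 (0.0714).

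The KO response was set beside that of WT, with which it shares no array, although both use 1 estimate of the spread per gene. Of the 216 genes called higher in KO, 194 (89.8%) were also called in WT, which is 68.3% of the 284 called there (1.42% of genes tested). Of the 51 lower, 34 (66.7%) were also called in WT, 45.3% of the 75 called there (0.376%). In all, 359 genes were called in WT (1.80%), and 6.42% had an unadjusted p under 0.05. The 216 had a median of 0.49 in KO and 0.53 in WT, and the 51 a median of -0.31 in KO and -0.33 in WT. All 284 genes higher in WT had a positive difference in KO, with medians of 0.41 in KO and 0.47 in WT, and 73 of the 75 lower ones had a negative difference, with medians of -0.25 and -0.33.

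**Figure D5:**
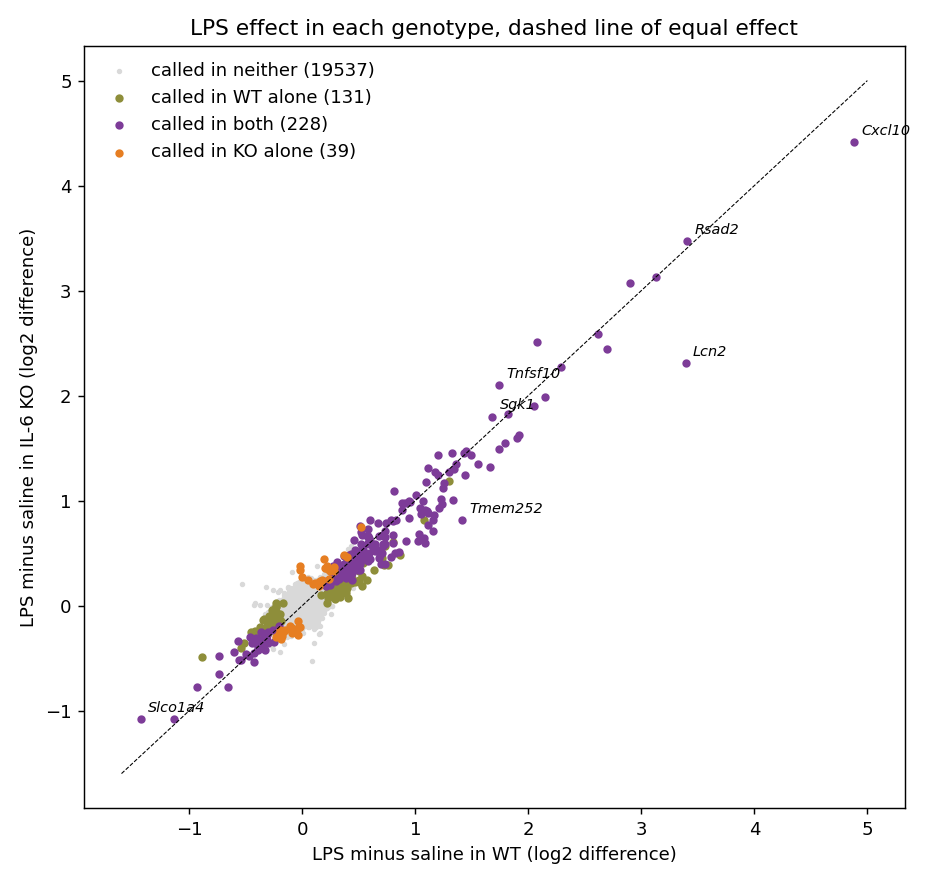
Each point is 1 of 19935 genes, with the log2 difference of LPS minus saline in WT on the x axis and in IL-6 KO on the y axis, coloured by the genotype in which it was called; the dashed line marks equal effects. The 228 genes called in both lie along the line, with Lcn2 (3.39 in WT, 2.31 in KO) below it.

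The genes called in KO and not in WT were small changes. The 22 higher ones had a median of 0.33 in KO and 0.20 in WT, and 19 were positive in WT; the 17 lower ones had medians of -0.24 and -0.15, and all 17 were negative in WT. The interaction had an unadjusted p under 0.05 in 5 and 4 of them. Rgcc, a cell cycle regulator that responds to complement, was one, at -0.40, -0.14, -0.27 and -0.13 after saline and between 0.14 and 0.32 after LPS. It rose by 0.45 in KO (SE 0.06, adjusted p = 2.05e-05, limma) and had 0.19 in WT (adjusted p = 0.125), an interaction of 0.25 (SE 0.08, unadjusted p = 0.00473). Dppa5a rose by 0.38 in KO and had -0.02 in WT, an interaction of 0.40 (SE 0.10, unadjusted p = 0.000435). Tnfsf10, called in both, rose by 2.10 in KO and 1.74 in WT, an interaction of 0.36 (SE 0.16, unadjusted p = 0.0294). None of these passed adjustment over all genes.

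The printed motifs were counted on both strands in the 250 bases before the start of every gene with a RefSeq promoter. These were 15612 genes, of which 173 were called higher and 34 lower. In the 2637 genes with several promoters, a match in any of them counted. An ISRE was found in 26 of the 173 (15%) and in 3.4% of all 15612 genes. The 26 rose by a median of 0.90 and the others by 0.48. A kappa-B site was found in 14 (8.09%) against 1.33%, a GAS in 26 (15%) against 7.71%, and a GRE in 5 (2.89%) against 0.416%. With only the first listed promoter of each gene, the ISRE and the GAS were each found in 25 (14.5%), against 2.93% and 6.7%. The kappa-B site was then found in 11 (6.36%) against 1.12%, and the GRE in 3 (1.73%) against 0.359%. In the 34 lowered genes no promoter held any of the 4 letter patterns. All 4 GTPases with a promoter in the table and 12 of 32 antiviral effectors held an ISRE, as the lines of Rsad2, Ifit1 and Ifit3 show. An ISRE overlapped a GAS in 1 raised promoter, and a kappa-B site overlapped a GAS in 1. These matches describe letters in a window and are not evidence of binding.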

How the data were processed

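Gene expression was measured on 22 Affymetrix arrays. The authors deposited a table of log2 values normalized by RMA, per the submitters' processing notes. In it every probe set had a median of 0 over the arrays (within 7.02e-07). That the log base is 2 was inferred from the numeric steps of the values. The array's genome build was not given in the sources used here.

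Of 28815 probe sets, the 21780 with 1 symbol gave 19935 genes, 998 of them averaged over several probe sets. The other 7035 carried several symbols or none. Differences were tested with limma 3.58.1 in R 4.3.3, with 1 mean per group over all 22 arrays, eBayes and Benjamini-Hochberg adjustment over all genes. The procedure was tested on simulated data.

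The genes and lists were chosen with earlier results of these data known. Named genes were Il6, the 30 largest increases, the 20 largest decreases, up to 6 called members per list (or the 1 with the smallest p) and genes at the ends of the interaction. Txnip, Ccl2, Pdk4, Tsc22d3, Klf9, Nr3c1, Rgcc, Abcb1a, Slc38a5, Slc16a4, Ocln, Ube2l6, Parp12 and those under Other observations were singled out after their values were seen. Alternatives covered thresholds, array-number blocks, single arrays, arrays with pituitary or choroid plexus genes, array weights, normalization and probe set choice. The arrays left out for choroid plexus genes were WT arrays, which leaves every KO difference unchanged. The KO arrays with high Ttr were not left out together. Leaving out 3 pituitary arrays together was chosen after seeing the data. The number of arrays limits the precision.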

Additional observations from a re-analysis of the deposited data

Results flagged for a closer look

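In 17 of 316 groups of 4 saline or 7 LPS KO arrays examined, 1 array stood apart from the rest of its group. Chance marks about 1 in 20 such groups. The rule set the gap to the nearest array against the range of the group, so a small gap could be marked. For Icosl the marked array lay at -0.186 and the others between -0.17 and -0.169.

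KO LPS replicate 4 stood below the other LPS arrays for Zbtb16 (-0.731), Herc6 (-0.435), Fkbp5 (-0.46), Mfsd2a (-0.236) and Txnip (-0.208), all of which rose after LPS. KO LPS replicate 5 stood low for Cd40 (-0.291), and KO LPS replicate 6 high for Parp9 (0.50) and Ddx60 (0.422).

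Among saline arrays, replicate 2 stood high for Prl (2.897), Ttr (1.231) and Mt1 (-0.291). Replicate 4 stood low for Fzd6 (0.224) and high for Hif3a (-0.343) and Socs3 (0.161). Replicate 1 stood low for Iigp1 (-2.549) and apart for Acer2 (-0.297), and replicate 3 apart for Icosl (-0.186).

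Probe sets left out of the gene table, because they carried several symbols or none, also held a response. Of these 7035, 54 were called (0.768%), 53 higher and 1 lower.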

How the results depend on the processing

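At an adjusted p under 0.01, 24 genes were called lower. Requiring also a difference over 0.5 left 113 genes, 105 higher and 8 lower. Within arrays 1 to 11, where 2 LPS arrays met 1 saline array, 125 were called, 88 of them higher. The KO arrays alone, without the spread of the WT arrays, gave 208 called, 27 of them lower. Quantile normalization gave 31 lower. Leaving out 1 array at a time gave 209 (without KO saline replicate 3) to 292 (without KO LPS replicate 4) called, 176 (without KO saline replicate 3) to 236 higher and 32 (without KO saline replicate 1) to 56 lower. The interaction called 0 genes in every setting tried. Signs reversed for values that were never called: the Il6 interaction within arrays 1 to 11 (-0.0227), Tnf within arrays 12 to 22 (-0.0172) and with array weights (-0.0229), and the Mt2 interaction within arrays 12 to 22 (0.0479).

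Of 145 named called genes, 55 kept their call in all 36 alternatives and 110 in all 22 that left out 1 array, and 80 lost it within arrays 1 to 11, which hold fewer samples. Alternatives that left out only WT arrays, 11 of the 22 single ones among them, could not change a KO difference, only the spread. Quantile normalization ended 23 of the 145 calls and kept every sign. It gives all arrays the same distribution, here of values already centred gene by gene over the 22 arrays. A large response shared by many genes can shrink under it. A call lost there therefore does not show that the gene failed to respond. The part of this in each lost call was not tested. No paired analysis was possible because the labels give the groups no shared replicate numbers. The centred values carry no signal over background, so what weak signal limits could not be read.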

Other observations

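Further gene groups, put together after the values were seen, add to the description. Genes that bind or cut viral and cellular RNA rose in 9 of 13 cases, with a median of 0.46, among them Samd9l (0.98, SE 0.17), the exonuclease gene Isg20 (0.59), Ddx60 (0.56), Zfp36, which destabilizes cytokine messengers (0.52), the DNA deaminase Apobec3 (0.46) and Zc3hav1 (0.38). Cd274 (PD-L1), which restrains T cells, rose by 1.48 (SE 0.11), with saline arrays between -1.41 and -1.21 and LPS arrays between -0.14 and 0.50. The costimulatory ligand Icosl rose by 0.23, and these were 2 of 7 B7 ligands called. Genes induced by BMP, Notch and Wnt signals fell in 5 of 18 cases, with a median of -0.16, among them Apcdd1 (-0.31), Id1 (-0.24), Hes1 (-0.23) and the Wnt receptor Fzd6 (-0.35). Isg20 was not called under quantile normalization (0.36, adjusted p = 0.595, limma). Single arrays decided some of these calls in limma: Zfp36 (adjusted p up to 0.119, without KO saline replicate 3), Icosl (0.0643, without KO saline replicate 3), Id1 (0.0534, without KO saline replicate 1) and Hes1 (up to 0.144, without KO saline replicate 3).

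Raised genes often lay side by side in the genome. Of the 216, 35 (16.2%) had an immediate neighbour that was also raised, while 2.09% of all tested genes had a raised neighbour. There were 4 runs of 3 or more, among them Parp14, Dtx3l and Parp9, and Ifit2, Ifit3 and Ifit3b. None of the 51 lowered genes had a lowered neighbour, against 0.507% of all tested genes. Probe sets of near-identical neighbouring copies can share signal, and the part of this was not tested.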
